A study of Mus musculus with 4 samples.

Results

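The 10 genes described here are transcription factors and markers of the epithelial-to-mesenchymal transition (EMT), chosen by name from the deposited table as 10 of its 55397 gene rows. They are the SNAIL factors Snai1 and Snai2, the ZEB factors Zeb1 and Zeb2, the TWIST factors Twist1 and Twist2, the homeobox factor Prrx1, and 3 markers, Cdh2 (N-cadherin), Vim (vimentin) and S100a4 (fibroblast-specific protein 1). Bulk RNA-seq was done on primary mouse embryonic fibroblasts (MEFs) from E13.5 C57BL/6J embryos in which both Prox1 alleles were floxed. All cells received lentivirus with the 4in1 hepatocyte-inducing factors and were collected after 14 days of reprogramming in hepatocyte medium. The group labelled Prox1 KO (n = 2, the Prox1 KO-labelled libraries) also received lentiviral Cre recombinase with GFP, and the control group (n = 2) received ΔCre, a non-functional form of the recombinase, so both groups carry the floxed alleles, the factors and GFP. The comparison asks how removal of Prox1, which encodes a homeobox factor of hepatocytes, changes the reprogrammed culture, and here how the mesenchymal regulators and markers differed.

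In EMT, epithelial cells lose E-cadherin junctions and keratins and gain the shape, adhesion and motility of mesenchyme. SNAIL and ZEB proteins are zinc finger factors that bind the E-box letters CAGGTG or CACCTG in promoters of epithelial genes, Cdh1 (E-cadherin) the best known among them, and recruit corepressors there. TWIST proteins are basic helix-loop-helix factors that pair with E proteins, and PRRX1 is a homeobox factor of limb and craniofacial mesenchyme. Fibroblasts express these factors, and a change from fibroblast to hepatocyte-like cell runs in the opposite direction, from mesenchyme to epithelium.

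Across the 4 libraries, 42469031 to 48524008 reads lay on genes. Prox1, the targeted gene, had 72.7 and 61.6 normalized counts in the Prox1 KO-labelled libraries of replicates 1 and 2, and 60.6 and 25.5 in the controls. It was not lower in the Prox1 KO-labelled libraries (log2 fold change 0.75, standard error 0.27, adjusted p = 0.0936 from limma). The study states that Cre removes 1 exon, so the whole-gene count can keep reads from the other exons. Reads per exon were not available, and the reason for the Prox1 values was not tested. With 1 library left out, the log2 fold change of Prox1 lay between 0.14 (without the control of replicate 2) and 1.36 (without the control of replicate 1). Every direction below therefore rests on the labels. Of 15809 genes tested, 11.4% were called between the groups (adjusted p under 0.05), 5.09% higher and 6.29% lower in the Prox1 KO-labelled libraries. Higher calls were 44.7% of all calls, against 56.4% after a correction for length and GC content. Both replicate 1 libraries expressed Xist, a transcript of the inactive X chromosome, at 14495 and 13944 normalized counts, and the replicate 2 libraries had 4.89 and 1.06. The replicate numbers therefore held different cells. The labels do not say how the cultures were set up. The p-values between the groups, from the main limma fit, compare libraries within each replicate number. Their variance is drawn mostly from all genes tested. They do not measure the spread between libraries of a group, and they cover only these 4 libraries.

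Of the 10 genes, all of which passed the filter on low counts, 2 were called higher in the Prox1 KO-labelled libraries (Cdh2 and S100a4), 0 were called lower and 8 were not called. Of all genes tested, 5.09% were called higher and 6.29% lower, or 11.4% in either direction, so few calls among 10 genes stand near these shares. The 7 transcription factors had fitted log2 fold changes of -0.06 to 0.07 and none was called, with adjusted p-values of 0.511 to 0.880 from limma. Their 95% intervals in this limma fit all lay between -0.17 and 0.21 on the log2 scale, or changes of -11.05% to 15.3%. The median size of the log2 fold change was 0.05 for the 10 genes, 0.10 for all genes tested and 0.28 for the called genes. Called genes are selected for large changes, and all genes tested include many with far fewer reads than these 10. Genes of similar level were not compared. In bulk RNA, fewer cells of a type and less RNA per cell cannot be told apart. For 3 of the 10 genes (Snai2, Prrx1 and S100a4) both Prox1 KO-labelled libraries lay above both controls, an order found in 21.8% of all tested genes. For 0 of the 10 did both lie below, an order found in 22.6% of all tested genes, and the remaining 7 overlapped.

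**Figure D1:**
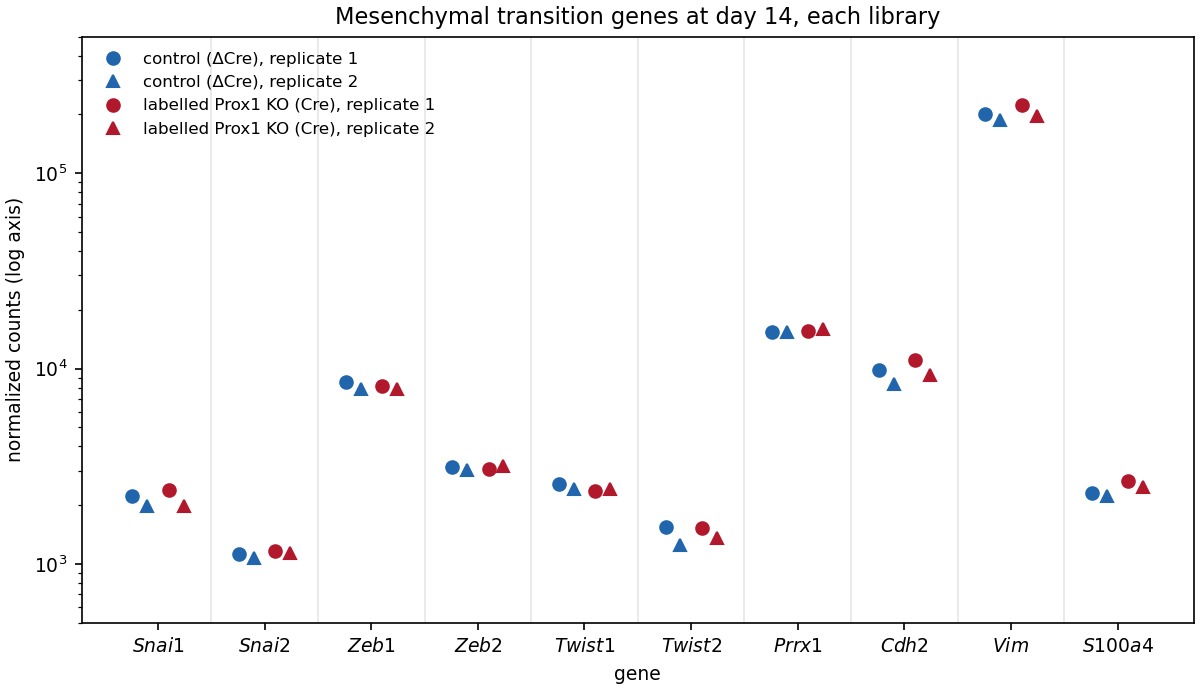
Normalized counts (log axis) of the 10 genes in each of the 4 libraries; circles are replicate 1, triangles replicate 2, blue the controls and red the Prox1 KO-labelled libraries. Vim is highest in every library, and the points of each gene lie close together beside the distances between genes.

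The levels spanned a wide range. Per kilobase of the longest coding transcript, Vim had a mean of 91945 normalized counts, above 99.9% of tested genes, and S100a4 followed with 4872. Vim alone took 0.414% to 0.499% of all counts and ranked between 6 and 13 among all genes by counts. Prrx1 was the most abundant of the factors with 2380 normalized counts per kilobase, then came Cdh2 with 1996, and the ranges of these 4 genes over the libraries did not overlap. Twist1 (1502), Zeb1 (1401) and Snai1 (1324) had neighbouring levels per kilobase whose ranges overlapped, as did Twist2 (564) and Snai2 (556). Zeb2 was the lowest at 341 normalized counts per kilobase, still above 57.2% of tested genes. The smallest number of reads behind any of the 10 genes in a library was 1007, so counting error was at most 3.15% of a value.

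The SNAIL factors come first in most accounts of EMT, as direct repressors of E-cadherin. Snai1 (ENSMUSG00000042821; chromosome 2, 167538195 to 167542814, plus strand, GRCm38) had 2392 and 1976 normalized counts in the Prox1 KO-labelled libraries of replicates 1 and 2, and 2236 and 1980 in the controls. Each replicate 1 library was high and each replicate 2 library low, and the groups overlapped. The log2 fold change was 0.05 (95% interval -0.06 to 0.16, adjusted p = 0.638 from limma). Pair 1 alone gave 0.10 and pair 2 alone -0.0025. Snai2 (ENSMUSG00000022676; chromosome 16, 14705852 to 14709385, plus strand), known as Slug and a factor of neural crest and dermal cells, had 1168 and 1139 in the Prox1 KO-labelled libraries and 1119 and 1072 in the controls. The groups did not overlap, but the gap between them was smaller than the distance between the controls. Its log2 fold change of 0.07 (95% interval -0.06 to 0.21) had an adjusted p of 0.511 from limma.

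SNAIL factors bind their own E-box, and Snai1 is known to repress itself through one. Among 250-base windows upstream of RefSeq gene starts, 17.2% of 32851 held CAGGTG or CACCTG, which are the same site read from either strand. Of the 7 genes described here with a window that was searched, 1 held the letters, and that was Snai1. The windows of Snai1 and of Epcam and Cldn4, epithelial genes described further on that were lower in the Prox1 KO-labelled libraries, are printed because they show where this E-box lies in a factor and in epithelial genes. They are from RefSeq on GRCm38.p6, 5′ to 3′ on the strand of the gene and end at the base before its start; capitals mark the E-box, which begins 126 bases before the start in Snai1, 187 and 19 bases before it in Epcam and 14 bases before it in Cldn4.
Snai1, chr2:167537945-167538194, plus strand: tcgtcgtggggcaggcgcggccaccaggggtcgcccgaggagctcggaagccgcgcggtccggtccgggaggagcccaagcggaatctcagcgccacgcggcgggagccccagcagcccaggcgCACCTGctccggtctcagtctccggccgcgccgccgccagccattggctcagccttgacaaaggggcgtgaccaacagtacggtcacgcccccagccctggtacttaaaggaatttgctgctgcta
Epcam, chr17:87635729-87635978, plus strand: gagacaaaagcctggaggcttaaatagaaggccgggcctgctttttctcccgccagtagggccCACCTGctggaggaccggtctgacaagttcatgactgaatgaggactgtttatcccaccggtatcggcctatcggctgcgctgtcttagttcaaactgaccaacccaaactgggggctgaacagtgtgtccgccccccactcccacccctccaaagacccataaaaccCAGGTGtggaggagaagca
Cldn4, chr5:134946935-134947184, minus strand: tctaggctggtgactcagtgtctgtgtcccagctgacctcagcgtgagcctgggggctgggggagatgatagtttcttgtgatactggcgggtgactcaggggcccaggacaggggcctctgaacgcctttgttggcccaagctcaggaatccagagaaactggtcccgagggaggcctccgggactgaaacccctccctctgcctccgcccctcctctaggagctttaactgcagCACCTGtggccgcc

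The ZEB factors repress the same class of promoters and are themselves held down in epithelia by the miR-200 family. Zeb1 (ENSMUSG00000024238; chromosome 18, 5591860 to 5775467, plus strand) had 8191 and 7842 normalized counts in the Prox1 KO-labelled libraries, and 8551 and 7913 in the controls. The groups overlapped, and the values were lower than the same-numbered control in both pairs, which made Zeb1 the only 1 of the 10 genes with that pattern. The log2 fold change was -0.04 (95% interval -0.12 to 0.05, adjusted p = 0.631 from limma). Zeb2 (ENSMUSG00000026872; chromosome 2, 44983632 to 45117395, minus strand) had 3078 and 3181 in the Prox1 KO-labelled libraries and 3152 and 3038 in the controls. Its groups overlapped and the pairs went opposite ways, so the log2 fold change of 0.02 (95% interval -0.08 to 0.12, adjusted p = 0.880 from limma) was the smallest of the 10 in size, and it was -0.01 after a correction for length and GC content.

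TWIST factors act in mesoderm and cranial mesenchyme. Twist1 (ENSMUSG00000035799; chromosome 12, 33957671 to 33959829, plus strand) had 2363 and 2423 normalized counts in the Prox1 KO-labelled libraries, and 2573 and 2422 in the controls. Its control of replicate 1 was the highest library and the other 3 were close together, so the groups overlapped. The log2 fold change was -0.06 (95% interval -0.17 to 0.05, adjusted p = 0.514 from limma). Twist2 (ENSMUSG00000007805; chromosome 1, 91801461 to 91848028, plus strand), also called Dermo1 for its place in dermis, had 1528 and 1360 in the Prox1 KO-labelled libraries and 1552 and 1256 in the controls. Both replicate 1 libraries were above both replicate 2 libraries, whichever group they belonged to. The log2 fold change was 0.05 (95% interval -0.08 to 0.17, adjusted p = 0.702 from limma). Gm29100, an antisense gene with 41.5 to 63.5 normalized counts, shares 56.4% of the 100-base stretches of the Twist2 transcript.

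Prrx1 (ENSMUSG00000026586; chromosome 1, 163245119 to 163313710, minus strand), a marker of limb bud and body wall mesenchyme, had 15545 and 15916 normalized counts in the Prox1 KO-labelled libraries, and 15326 and 15345 in the controls. Both Prox1 KO-labelled libraries were above both controls, by a small margin. The log2 fold change was 0.04 (95% interval -0.05 to 0.12, adjusted p = 0.627 from limma). Zeb1, Zeb2, Twist2, Prrx1 and Cdh2 have annotated antisense genes. Since the strand setting of the counting is not given in the sources used here, reads from stretches shared with an antisense partner cannot be told apart. Of the 100-base stretches of the transcript, 56.4% were shared with another gene in Twist2 and 0.81% in Zeb2. In Zeb1, Prrx1 and Cdh2 the share was 0.0%.

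The markers are products of the mesenchymal state rather than its regulators. Cdh2 (ENSMUSG00000024304; chromosome 18, 16588877 to 16809246, minus strand), the cadherin that replaces E-cadherin in EMT, had 11131 and 9257 normalized counts in the Prox1 KO-labelled libraries, and 9899 and 8385 in the controls. Within each pair the Prox1 KO-labelled library was the higher, but the one of replicate 2 lay below the control of replicate 1, so the groups overlapped. The means were 10194 ± 1325 and 9142 ± 1070 (SD, n = 2 each), and the log2 fold change in the paired fit was 0.16 (standard error 0.04, 95% interval 0.07 to 0.24, adjusted p = 0.0177 from limma), a rise of 11.4%. This call depended on the pairing: with no replicate block the adjusted p was 0.633, and with DESeq2 and the block it was 0.139.

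S100a4 (ENSMUSG00000001020; chromosome 3, 90603771 to 90606045, plus strand), a small calcium-binding protein of fibroblasts and motile cells, had 2674 and 2480 normalized counts in the Prox1 KO-labelled libraries, and 2314 and 2238 in the controls. Both Prox1 KO-labelled libraries were above both controls. The means were 2577 ± 137 and 2276 ± 54.3 (SD, n = 2 each), with a log2 fold change of 0.18 (standard error 0.05, 95% interval 0.07 to 0.28, adjusted p = 0.0275 from limma), a rise of 13.2%. The adjusted p was 0.392 with no replicate block and 0.411 with DESeq2 and the block. Gm42674, which overlaps S100a4 on the same strand and shares 50.9% of its 100-base stretches, was listed with 0 counts in every library.

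Vim (ENSMUSG00000026728; chromosome 2, 13573927 to 13582826, plus strand), the main intermediate filament of mesenchymal cells, had 222861 and 195683 normalized counts in the Prox1 KO-labelled libraries, and 200628 and 187369 in the controls. The Prox1 KO-labelled library was the higher in each pair, while the one of replicate 2 lay below the control of replicate 1. The log2 fold change was 0.11 (standard error 0.05, 95% interval -0.0018 to 0.22) and was not called (adjusted p = 0.218 from limma). It was 0.01 without the Prox1 KO-labelled library of replicate 1 and 0.20 without that of replicate 2. Vim passed the threshold in 2 of 11 settings that used all libraries, quantile normalization (log2 fold change 0.22, adjusted p = 0.0308) and the correction for length and GC content (0.15, adjusted p = 0.0267). Cdh2 passed in 7 and S100a4 in 8 of the 11, and each transcription factor in 0. In all 11 settings the 3 markers had log2 fold changes above 0. The settings refit the same libraries, and several share the same log2 fold change, so these counts are not independent support.

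**Figure D2:**
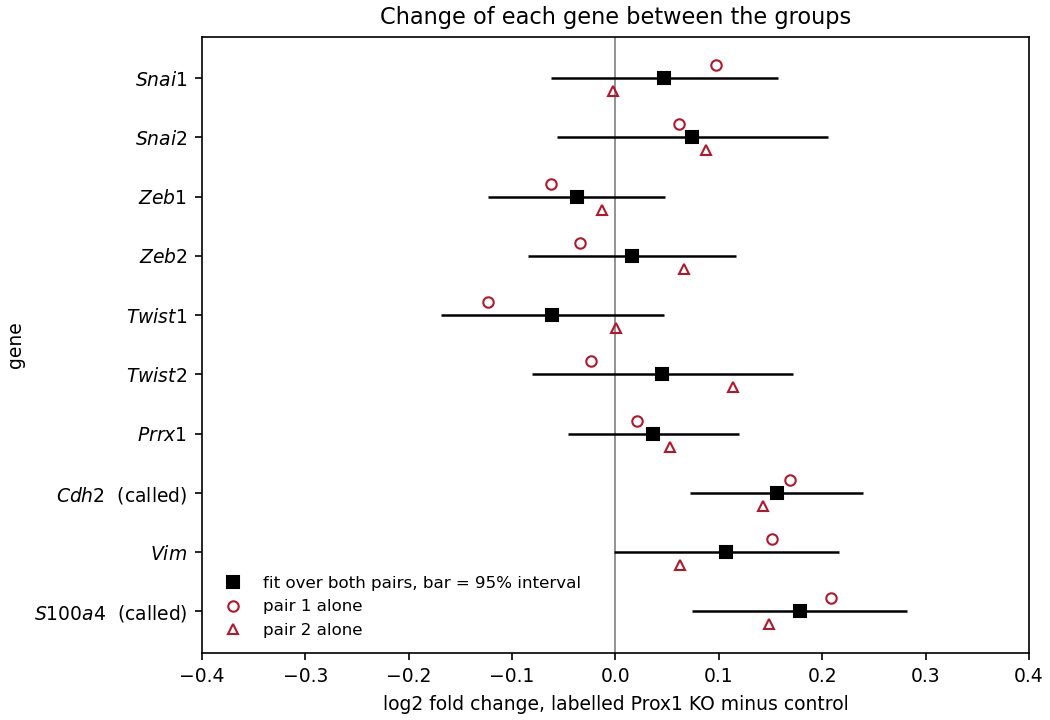
Log2 fold change of each gene, Prox1 KO-labelled libraries minus controls; squares are the fit over both pairs with 95% intervals, open circles pair 1 alone and open triangles pair 2 alone. The intervals of the 7 transcription factors all cross 0, as does that of Vim by a small margin (-0.0018 to 0.22). Those of Cdh2 and S100a4 lie above 0.

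For 4 of the 10 genes (Snai1, Zeb2, Twist1 and Twist2) the pairs had opposite signs, 5 were higher in both pairs and 1 was lower in both. The shares of all tested genes with these patterns were not computed, so the counts do not set the 10 genes apart. The replicate numbers themselves also separated some of the genes. Between replicate 2 and replicate 1, at the same treatments, 3 of the 10 genes were called lower (background 3.49% of tested genes) and 0 were called higher (background 4.39%). These were Cdh2, with a log2 difference of -0.25 (adjusted p = 0.000625), Twist2, with -0.24 (adjusted p = 0.0209), and Snai1, with -0.23 (adjusted p = 0.0121), all from limma. With DESeq2, 1 of them (Cdh2) was called. For 5 of the 10 genes the difference between replicate numbers was larger in size than that between the groups. The matching share of all tested genes was not computed. The median size of the replicate difference was 0.08 on the log2 scale for the 10 genes and 0.09 for all genes tested.

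**Figure D3:**
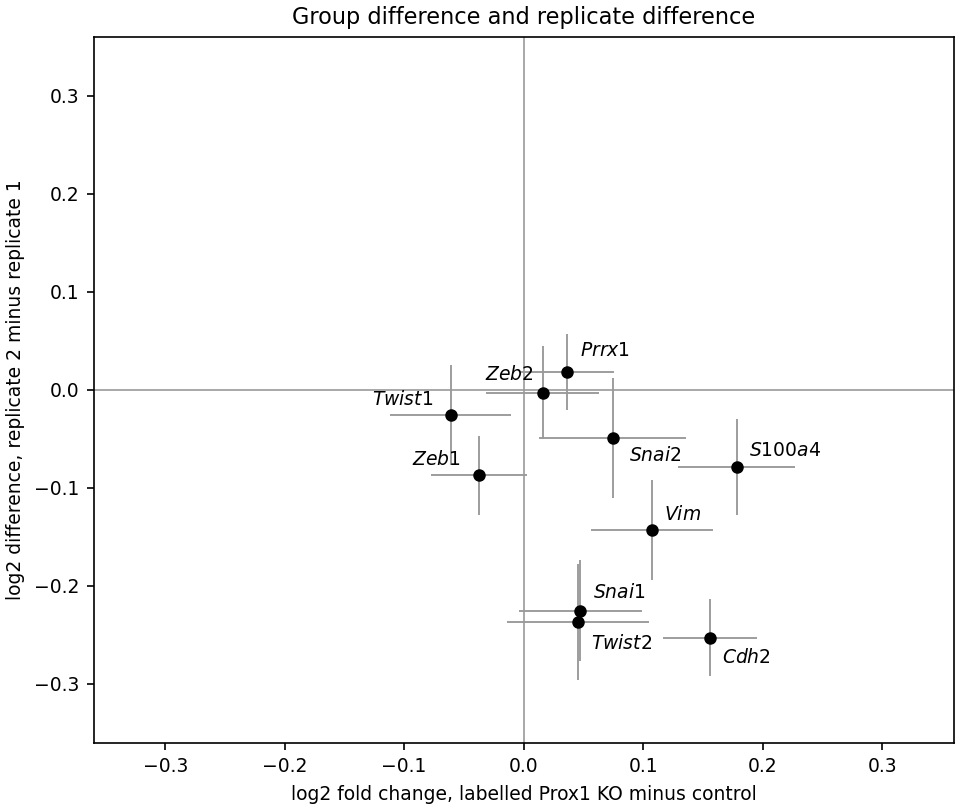
For each gene, the log2 fold change between the groups (x axis) and the log2 difference between replicate 2 and replicate 1 (y axis); bars are standard errors of the fit. Cdh2, Twist2 and Snai1 lie lowest on the y axis, between -0.25 and -0.23, and S100a4 and Cdh2 farthest to the right.

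The other genes of the pathway were taken from 9 lists of 150 genes, of which 136 were tested. In all, 17 of these were higher and 20 lower in Prox1 KO-labelled libraries. Of all genes tested, 5.09% were higher and 6.29% lower, and the counts of each list and of the cell type markers below stand beside these shares. TGF-beta signalling, through its receptors and SMAD proteins, is the best known inducer of SNAIL and ZEB genes. Of its 11 listed genes, 3 were higher and 1 lower, and the median log2 fold change was 0.03. The ligand gene Tgfb2 had 3975 and 3967 normalized counts in the Prox1 KO-labelled libraries, and 3372 and 3376 in the controls, a separation of the groups with almost no spread inside them (log2 fold change 0.24, standard error 0.04, adjusted p = 0.00254 from limma). Smad7, the inhibitory SMAD that TGF-beta induces, rose by 0.28 (adjusted p = 0.0233), with 0.40 in pair 1 and 0.17 in pair 2. The ligand gene Tgfb3 rose by 0.14 (adjusted p = 0.0301). Tgfbr1, the type I receptor, changed the other way, with -0.23 (adjusted p = 0.0110), all from limma.

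Other transcription factors tied to EMT or mesenchyme gave 1 higher and 2 lower of 21 tested, with a median log2 fold change of -0.04. Fosl1, an AP-1 subunit, rose by 0.24 on the log2 scale (adjusted p = 0.00625), Prrx2, the paralogue of Prrx1, changed by -0.17 (adjusted p = 0.0210), and Osr2, an odd-skipped zinc finger factor, by -0.53 (adjusted p = 0.000134), from limma. Prrx2 had 3439 and 3233 normalized counts in the Prox1 KO-labelled libraries, below the 3816 and 3695 of the controls, and Prrx1 values were slightly above theirs. None of the 7 E proteins and ID proteins, which are the partners and inhibitors of TWIST, was called, and Id3, the most abundant, had 0.01 (adjusted p = 0.915 from limma). Of 13 corepressor genes, 0 were higher and 1 was lower: Ezh2, a histone methyltransferase that is high in dividing cells, with -0.46 (standard error 0.11, adjusted p = 0.0158 from limma).

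The families of the markers were mixed. Among 14 tested cadherins and catenins, 3 were higher and 2 lower. Cdh1 (ENSMUSG00000000303; chromosome 8, 106603351 to 106670246), the epithelial counterpart of Cdh2, had 656 and 826 normalized counts in the Prox1 KO-labelled libraries, and 1294 and 1974 in the controls. The groups were far apart (log2 fold change -1.12, standard error 0.07, adjusted p = 2.36e-07 from limma). Per kilobase, the Cdh2 level was 15.5 and 10.3 times that of Cdh1 in the Prox1 KO-labelled libraries, and 6.995 and 3.89 times in the controls. Most of this distance came from Cdh1, since Cdh2 rose by 0.16 and Cdh1 fell by 1.12 on the log2 scale. Cdh11, a cadherin of mesenchymal and bone-forming cells, had -0.23 (adjusted p = 0.00108), so the mesenchymal cadherins did not share a direction. Ctnnd2, a catenin of the p120 family known from neurons, had the largest rise of the list at 0.71 (adjusted p = 4.74e-05), from limma.

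Among 8 tested intermediate filament and linker genes, 2 were higher and 0 lower. Des, the muscle filament desmin, rose by 0.36 (adjusted p = 0.00167), and Plec, the linker plectin that binds vimentin, by 0.28 (adjusted p = 0.000811), from limma on the log2 scale. Plec was 0.15 after the correction for length and GC content. Of 11 tested S100 genes, 1 was higher and 0 lower, S100a7a with 0.40 (adjusted p = 0.000247 from limma). S100a6, the most abundant of the S100 list, had 117938 and 105228 normalized counts in the Prox1 KO-labelled libraries and 110634 and 105399 in the controls, and was not called (adjusted p = 0.619 from limma).

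Fibroblast surface and matrix genes split evenly, with 5 higher and 5 lower of 24 and a median log2 fold change of 0.01. The largest changes were falls. Lum, the matrix proteoglycan lumican, had 1761 and 3064 normalized counts in the Prox1 KO-labelled libraries, and 4043 and 4736 in the controls (log2 fold change -0.91, adjusted p = 5.68e-06). Pdgfra, a receptor of fibroblast progenitors, had -0.48 (adjusted p = 0.000280) and Dcn, the proteoglycan decorin, -0.43 (adjusted p = 0.00135), all from limma. All of these were larger in pair 1 than in pair 2. Postn and Mme were also called lower. Among the genes called higher were Acta2 and Tagln, which encode contractile proteins of myofibroblasts and smooth muscle, Ccn2, a known target of TGF-beta and YAP signalling, and the fibronectin receptor subunit Itga5, with log2 fold changes of 0.23 to 0.27.

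The epithelial list holds genes that SNAIL and ZEB factors are known to repress, or that keep epithelia in their state. Of 28 tested, 10 were lower (35.7%, against 6.29% of all genes tested) and 2 higher (7.14%, against 5.09%). The median log2 fold change was -0.19. Epcam, a surface protein of epithelia, had 56.1 and 67.4 normalized counts in the Prox1 KO-labelled libraries, and 151 and 227 in the controls (log2 fold change -1.58, standard error 0.18, adjusted p = 3.63e-05). Cldn7, a tight junction claudin, had -1.31 (adjusted p = 0.000308), and Cldn4, another claudin, had 525 and 552 normalized counts against 1017 and 1117 in the controls (-0.98, adjusted p = 8.26e-07), all from limma. The groups did not overlap for any of the 3. Ehf, an epithelial ETS factor, had the largest log2 fold change in size, -1.73 (adjusted p = 0.0476 from limma), but 1.04 to 26.6 normalized counts and overlapping groups. It was called in 4 of 10 settings that used all libraries, with log2 fold changes of -2.11 to -0.78. The remaining genes called lower were Cdh1, Ocln, Krt8, Krt18, Krt19 and Crb3, which encode junction proteins, keratins and a polarity protein. Dsp, of desmosomes, and Grhl3, a factor of surface ectoderm, were the 2 that rose, by 0.32 and 0.60 on the log2 scale.

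**Figure D4:**
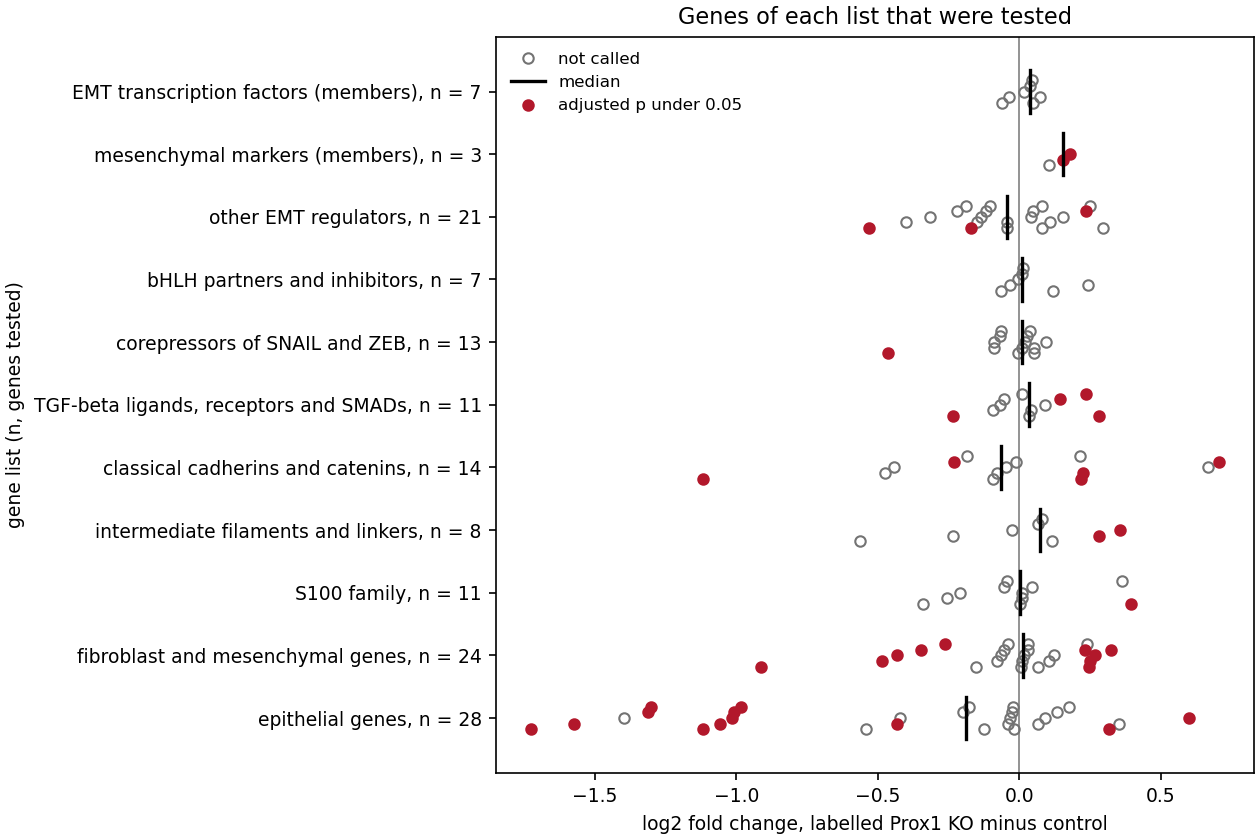
Log2 fold change (x axis) of every tested gene in each list; filled red points have an adjusted p under 0.05, open points do not, and black lines are list medians. The 7 transcription factors lie within 0.1 of 0, and the epithelial list reaches farthest to the left with a median of -0.19.

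Of the 34 epithelial genes, 20 had an upstream window, and 14 of these (70.0%) held the E-box, against 19.4% of all genes with a window. It was present in 7 of the 7 genes called lower that had a window and in 7 of the other 13. Counted by window, it was present in 8 of 10 windows of the epithelial genes called lower and in 16 of 27 of the whole list. Among the windows of all genes called lower it was present in 17.6%, of those called higher in 15.1%, and of those tested and not called in 15.5%. The list was chosen in part for genes known to be repressed through such sites, and the match is a description of letters, not of binding.

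Markers of the cell types that a reprogramming culture could hold were read in the same libraries. Of 6 fibroblast markers, 0 were higher and 2 lower (Col3a1 and Pdgfra), and the summed normalized counts were 684095 to 870797 in the Prox1 KO-labelled libraries and 762060 to 950862 in the controls, so the labelled cell type was present in all. Of 7 hepatocyte markers, 0 were higher and 5 lower, with sums of 15393 to 16648 and 19664 to 19900. Most of each sum came from Afp and Alb. Afp was called lower (log2 fold change -0.22, adjusted p = 0.00822 from limma). Alb was not called (log2 fold change -0.10, adjusted p = 0.158 from limma), and neither was Apoa2. Of 4 cholangiocyte markers, which share Krt7, Krt19 and Epcam with the epithelial list, 2 were lower, with sums of 5026 to 5035 and 5848 to 6881. Of the endothelial markers only Kdr was tested and it was higher, while Pecam1, Cdh5 and Tie1 had at most 12.5 normalized counts. No leukocyte, keratinocyte or neuronal marker was called, Adgre1 was at 0 in all libraries, and the 4 skeletal muscle markers summed to at most 6.84. The part of these shifts in the changes of Cdh2, S100a4 and the epithelial genes was not tested.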

How the data were processed

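Per the paper and the submitters' processing notes, paired-end reads of dUTP libraries were mapped to mm10 with STAR. The authors deposited normalized counts, a signal per gene in which read counts were scaled by DESeq2 size factors. Counter and annotation are not given in the sources used here. Values were whole multiples of that of 1 read (100% within 0.001), so reads were recovered, with size factors of 0.939 to 1.09. The authors' comparison table (shrunken fold changes with raw and adjusted p-values) was not used, and 0 per-sample columns were left unused.

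The members and gene lists were chosen with earlier results of these data known. The 15809 of 55397 genes averaging 10 or more normalized counts entered the test on log2(normalized counts + 1), which understates changes of low genes, with limma 3.58.1 in R 4.3.3 (variance trend, two-sided moderated test, Benjamini-Hochberg, threshold 0.05), with the replicate number as a block. That fit leaves 1 residual degree of freedom, beside a median of 14.2 prior ones drawn from all genes. The block follows the methods, which use the MEF line as a covariate, although no label says that a number is a line. Deviations from the group means of same-numbered libraries correlated at 0.402 over genes (0.334 over autosomal genes). Libraries of the same group differed beyond sampling noise in 34.2% (labelled Prox1 KO) and 35.4% (control) of genes, so none was a duplicate.

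Named genes are the 10 members, Prox1, Cdh1, and up to 3 called genes of each list with the largest changes, or its most abundant gene where none was called. Tgfb3, S100a6, Cldn4 and the further fibroblast, epithelial and marker genes named are outside this rule, as is Xist. Their values had been seen when they were chosen. Some values for listed genes are not reported here. Alternatives were no replicate block, pseudocounts of 0.1 and 10, no filter and a mean of at least 50, quantile normalization, a loess correction for transcript length and GC content with the block, edgeR 4.0.16 (quasi-likelihood) and DESeq2 1.42.0 on recovered reads, each library left out, and each pair alone. Coordinates and transcript lengths are from GENCODE vM21 on GRCm38 (55137 gene identifiers matched), and promoter windows from RefSeq on GRCm38.p6. Windows of chromosome 18 were not used. Counting error does not cover amplification. The scripts were tested on simulated data.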

Additional observations from a re-analysis of the deposited data

Results flagged for a closer look

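For 4 genes the Prox1 KO-labelled libraries moved one way against the control in pair 1 and the opposite way in pair 2. The log2 difference in pair 1 minus that in pair 2 was 0.10 for Snai1, -0.10 for Zeb2, -0.12 for Twist1 and -0.14 for Twist2. With 1 library of each group in a pair, these differences between the pairs were not tested. The share of all tested genes with opposite signs was not computed.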

How the results depend on the processing

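The number of calls depended most on the replicate block. Without the block, 0 of the 15809 tested genes passed in limma (1783 with an unadjusted p under 0.05, against 3751 of which 1798 passed with it), 0 of the 10 mesenchymal transition genes passed (1 unadjusted) and 0 of the 150 other listed genes (33 unadjusted, against 37 called with it). With DESeq2 and the block, 483 genes passed, 0 of the 10 (3 unadjusted) and 22 listed genes, and with DESeq2 and no block 160 genes (33.8% of them higher), 0 of the 10 (0 unadjusted) and 12 listed genes. The 483 and the 160 genes were all among the 1798. With each library left out, without the block and with the lone library of a group assumed to vary like the others, 0 to 118 genes, 0 to 0 of the 10 and 0 to 6 listed genes passed, and the 118 and the 6 came without the Prox1 KO-labelled library of replicate 2. Between replicate numbers, 1245 genes and 3 of the 10 were called, against 393 and 1 with DESeq2. The cause of these losses was not tested.

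Of the single genes, Cdh2 kept its direction throughout but was 0.02 without the Prox1 KO-labelled library of replicate 1, 0.04 without the control of replicate 2, 0.28 without the control of replicate 1 and 0.29 without the Prox1 KO-labelled library of replicate 2, on the log2 scale. S100a4 ranged from 0.12 to 0.23 and Vim from 0.01 to 0.20 with a library or pair left out. The sign turned for factors near 0: Snai1 ranged from -0.090 to 0.18, Zeb1 from -0.093 to 0.018, Zeb2 from -0.034 to 0.066, Twist1 from -0.12 to 0.00087 and Twist2 from -0.11 to 0.20 with libraries or pairs left out. With the length and GC correction Zeb2 was -0.013, Zeb1 -0.037, Twist1 -0.011 and Prrx1 0.032. Snai1 was 0.096, Snai2 0.12 and Twist2 0.085 with it, above their values in the main fit, and no factor was called. The difference of Zeb2 between replicate numbers turned from -0.0028 to 0.0048 with quantile normalization and to 0.00070 with edgeR. In the other alternatives with all libraries, 2 to 3 of the 10 genes passed, and quantile normalization replaced Cdh2 (adjusted p = 0.0557) with Vim. With 2 libraries a group, the 95% intervals of the 7 factors in the main limma fit span changes up to 15.3%. No intervals were computed with edgeR or DESeq2, so this bound holds for that fit only.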
